A study of Mus musculus with 6 samples.

Results

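Natural killer (NK) and ILC1-like cells made up 304 of the 77105 CD45+ midbrain cells kept from Line 61 mice, or 0.394% (exact binomial 95% interval 0.351 to 0.441). They were chosen by measured values. A cell was a member when it held 3 or more UMIs (counted RNA molecules) summed over Ncr1, Klrb1c, Klra4, Klra8, Gzma and Xcl1, no UMI of Cd3d, Cd3e or Cd3g, and no more UMIs of the microglial genes P2ry12, Tmem119 and Siglech than of the NK genes. The levels of these genes are therefore a description of how the cells were picked, and no result is drawn from tests of them. The PBS library held 79 members, the monomer library 77, PFF + VH 128 and PFF + AZD1480 20.

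All mice were Line 61 males, 12 to 15 weeks old at injection, in which the Thy1 promoter drives human α-Syn, so the controls also overexpress α-Syn. The line is bred from Line 61 females and BDF1 hybrid males, on what the paper calls a congenic background. They received PBS, monomeric human α-Syn or preformed fibrils of it (PFF) in the striatum. The PFF groups were gavaged from week 2 with vehicle (VH, DMSO) or with AZD1480, an inhibitor of JAK1 and JAK2, at 25 mg/kg, and cells were taken at week 6. For each sample, 3 to 5 ventral midbrains were pooled and live CD45+ cells were sorted for 10x sequencing. The study states 3 samples each for PBS and monomer, 4 with PFF + VH and 5 with PFF + AZD1480, but there is 1 RNA library per condition. The PBS and monomer values thus have no replicates. The PFF + VH and PFF + AZD1480 cells carry 4 and 5 hashtags, antibody-linked barcodes, and each hashtag was taken as a sample because the numbers match. No source states this match.

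NK cells are lymphocytes that kill infected or stressed cells with perforin and granzymes and release chemokines such as XCL1 and CCL5 and the cytokine interferon γ. They read their targets through germline-encoded receptors, among them NKp46 (Ncr1), NK1.1 (Klrb1c), NKG2D (Klrk1) and the Ly49 family (Klra genes). ILC1 share NKp46, NK1.1 and the transcription factor T-bet (Tbx21) with NK cells but reside in tissues, where they carry CD49a (Itga1), TRAIL (Tnfsf10) and CXCR6 and have little of the NK cell factor Eomes and of CD49b (Itga2). Both depend on IL-15, whose receptor signals through JAK1, JAK3 and STAT5.

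The comparison of PFF + VH with PFF + AZD1480 rests on the hashtags, so their barcodes of 15 bases are shown. The 10 pairs differ at 8 to 13 positions.
Hashtag 1, PFF + VH and PFF + AZD1480: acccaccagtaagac
Hashtag 2, PFF + VH and PFF + AZD1480: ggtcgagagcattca
Hashtag 3, PFF + VH and PFF + AZD1480: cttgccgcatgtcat
Hashtag 4, PFF + VH and PFF + AZD1480: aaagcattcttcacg
Hashtag 5, PFF + AZD1480: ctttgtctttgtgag

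The 250 bases before the start of 4 genes of the selection rule are shown, because Ncr1 was detected in most members and Gzma, Klra4 and Klra8 divided them. Sequences are from RefSeq on GRCm38.p6, read along each gene's strand, and all 4 genes were matched. Capitals mark the letters TGTGGT, bound by Runx factors, and AGGTGT, bound by T-box factors such as Eomes and T-bet. Both strands were searched (ACCACA and ACACCT on the other), and no match overlaps another in these windows.
Ncr1, chr7:4337474-4337723, plus strand: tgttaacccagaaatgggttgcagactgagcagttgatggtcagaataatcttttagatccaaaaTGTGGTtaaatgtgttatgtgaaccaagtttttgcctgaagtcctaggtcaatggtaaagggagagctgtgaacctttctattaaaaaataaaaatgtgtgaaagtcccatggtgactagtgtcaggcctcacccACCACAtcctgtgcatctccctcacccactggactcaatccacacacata
Gzma, chr13:113100982-113101231, minus strand: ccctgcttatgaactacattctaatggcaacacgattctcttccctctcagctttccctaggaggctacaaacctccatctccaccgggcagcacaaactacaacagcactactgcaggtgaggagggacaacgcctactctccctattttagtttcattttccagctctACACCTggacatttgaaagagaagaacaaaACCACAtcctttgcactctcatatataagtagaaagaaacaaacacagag
Klra4, chr6:130067272-130067521, minus strand: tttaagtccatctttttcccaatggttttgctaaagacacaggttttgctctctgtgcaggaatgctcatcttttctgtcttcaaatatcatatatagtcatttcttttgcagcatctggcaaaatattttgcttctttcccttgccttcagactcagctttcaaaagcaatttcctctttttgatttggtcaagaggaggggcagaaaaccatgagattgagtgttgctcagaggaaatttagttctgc
Klra8, chr6:130129899-130130148, minus strand: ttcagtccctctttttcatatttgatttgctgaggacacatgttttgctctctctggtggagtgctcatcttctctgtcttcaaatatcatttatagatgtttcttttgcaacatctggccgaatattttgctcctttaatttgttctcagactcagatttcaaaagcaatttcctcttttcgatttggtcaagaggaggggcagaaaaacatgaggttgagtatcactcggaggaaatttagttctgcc
The Runx letters occur 2 times before Ncr1 and 1 time before Gzma, and in 14.0% of 32817 windows of this length. The T-box letters occur 1 time before Gzma, and in 11.8% of the windows. Klra4 and Klra8 hold no match, and their windows are 84.5% identical. A match is a description and not a binding site. The last 300 bases of the longest transcripts, where 3′ libraries are read, are 98.7% identical between Klra3 and Klra9 and 57.2% between Klra4 and Klra8, with 56.4% to 98.7% over the 10 pairs of Klra3, Klra4, Klra7, Klra8 and Klra9. Counts of Klra3 and Klra9 are therefore uncertain.

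On GRCm38, Klra4 (ENSMUSG00000079852, chr6:130043731-130067271), Klra8 (ENSMUSG00000089727, chr6:130115226-130129898) and Klrb1c (ENSMUSG00000030325, chr6:128778485-128789215) lie on chromosome 6. Ncr1 (ENSMUSG00000062524) lies at chr7:4337724-4345164, Gzma (ENSMUSG00000023132) at chr13:113093825-113100981, and Xcl1 (ENSMUSG00000026573) at chr1:164931644-164935527. All 6 are protein-coding.

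Depth differed among the libraries, with a median of 7028, 6688, 2306 and 6616 UMIs per cell kept in PBS, monomer, PFF + VH and PFF + AZD1480. The members had a median of 5256, 5779, 2882.5 and 6785 UMIs, and 1435695 UMIs in all. No barcode was shared between members of different libraries, and 5 of the 304 members had a barcode that also occurs in another library.

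The label was checked on genes that the rule did not use, given as CPM, a gene's UMIs per 1000000 UMIs of the summed cells. Nkg7, a granule protein of killer cells, stood at 1438 CPM in the members and at 6.87 in all other cells. Il2rb, the receptor chain shared by IL-2 and IL-15, stood at 764 against 2.88, Klre1 at 697 against 1.68 and Prf1, which encodes perforin, at 352 against 0.849. Ccl5 stood at 3997 against 36.0. T cells, defined in the next paragraph, held Nkg7 at 671, Il2rb at 262, Klre1 at 128, Prf1 at 68.6 and Ccl5 at 2109 CPM. Of 29 NK and ILC1 genes outside the rule, Tyrobp alone was higher in all other cells, at 2024 CPM against 1878 in the members. These are values of the cells selected against the rest and carry no test. By ratio to all other cells, the leading genes with a UMI in at least 10% of members were Gzma (1323), Klra8, Klra4, Klri2 (634), Klra3 (621), Ncr1, Gm43647 (493), Klrb1c, Klrc3 (445) and Gzmb (416).

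Markers of other lymphocytes were mixed. Trac, the constant chain of the αβ T-cell receptor, stood at 9.05 CPM in the members and at 350 in 497 T cells (3 or more UMIs of CD3 and T-cell receptor genes, at least 1 of CD3). Cd8a and Cd8b1 had no UMI, which over all members allows up to 2.09 CPM, and Cd4 had 1. Of 12 ILC2 genes, 5 had none (Il13, Il5, Il4, Il17rb and Klf5) and 8 were lower in the members than in all other cells. Gata3 (64.1 against 1.83 CPM), Rora (148 against 25.5), Areg and Arg1 were higher. All 8 B-cell genes were lower, 3 of them at 0, and Ighm stood at 118 against 160 CPM with a UMI in 38.2% of members. Trbc1 and Trbc2 were present, at 378 and 358 CPM against 554 and 1020 in T cells. NK cells can transcribe these loci without a rearranged receptor. Microglial transcripts were present throughout. Cst3 had a UMI in each of the 304 members (7564 CPM, against 49261 in all other cells), and C1qa stood at 1054 against 6721.

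The limit of 3 UMIs cut through a gradient that was densest in PFF + VH. Exactly 3 UMIs were held by 24 members, 20 of them in PFF + VH, and 27 other NK genes summed to 8299 CPM in them. The 34 cells with 2 UMIs that met the other conditions, 24 of them in PFF + VH, held 3687 CPM, the 280 members with 4 or more 16093, and all other cells 350. Among the members, 97.4% had UMIs of at least 2 of the 6 genes and 83.2% of at least 3.

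As a share of cells, the members were 0.540% in PBS (exact 95% interval 0.428 to 0.673), 0.512% in monomer (0.404 to 0.640), 0.372% in PFF + VH (0.310 to 0.442) and 0.154% in PFF + AZD1480 (0.0938 to 0.237). These intervals cover counting error only. The PBS and monomer intervals overlap, and that of PFF + AZD1480 lies below the other 3. T cells were 1.02%, 0.632%, 0.465% and 0.714% of cells, so that there were 0.530, 0.811, 0.800 and 0.215 members per T cell.

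**Figure D1:**
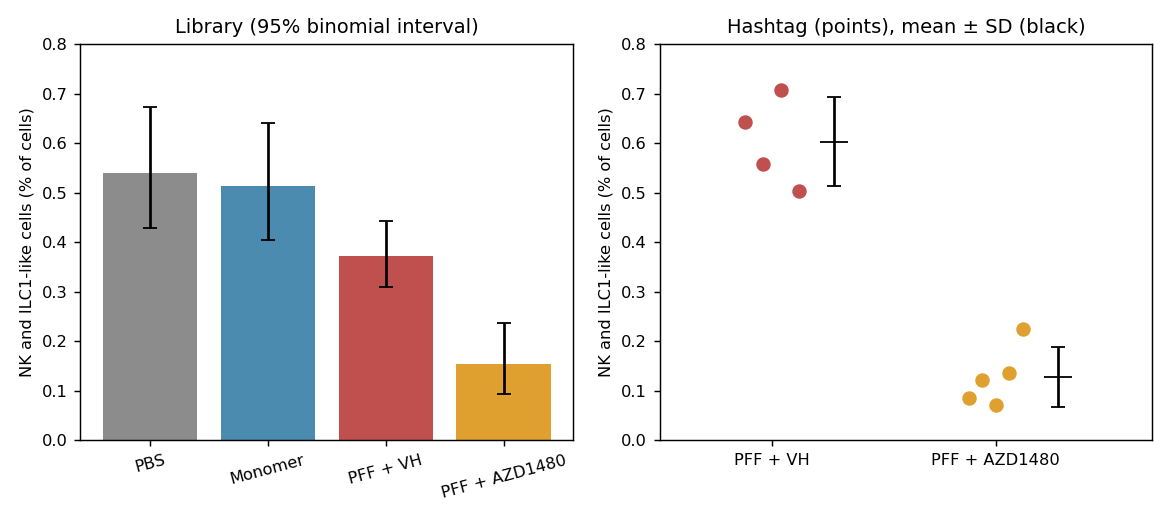
NK and ILC1-like cells as a percent of cells, by library with exact binomial 95% intervals (left) and by hashtag with mean ± SD (right). The 4 PFF + VH hashtags sit between 0.503 and 0.707%, and the 5 PFF + AZD1480 hashtags between 0.0713 and 0.225%.

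AZD1480 was compared with VH over the hashtags, in cells with a single hashtag. All hashtags of a group came from 1 library, so treatment and library cannot be told apart in any of these tests. The PFF + VH hashtags 1 to 4 held 0.643, 0.557, 0.707 and 0.503% members (29, 21, 30 and 27 cells). The PFF + AZD1480 hashtags 1 to 5 held 0.0844, 0.121, 0.0713, 0.135 and 0.225% (2, 3, 1, 4 and 3 cells). Each PFF + AZD1480 hashtag lay below each PFF + VH hashtag. The means were 0.602 ± 0.0901% (SD, n = 4) and 0.127 ± 0.0606% (SD, n = 5), a difference of -0.475 percentage points (two-sided exact permutation test over 126 splits, p = 0.0159, the smallest the design allows, 0.0212 after Benjamini-Hochberg adjustment over 4 tests), or 4.73-fold.

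Depth was then equalised by thinning cells to 1000 UMIs before the rule was applied. Cells under 1000 UMIs were left out, which kept 4088 of 4512 cells in PFF + VH hashtag 1 and 2341 of 2371 in PFF + AZD1480 hashtag 1. A cell whose CD3 UMIs were lost in thinning could become a member. The shares became 0.442 ± 0.0633% in PFF + VH (SD, n = 4) and 0.0810 ± 0.0230% in PFF + AZD1480 (SD, n = 5), 5.46-fold apart and without overlap (exact permutation p = 0.0159, adjusted 0.0212). With MULTIseqDemux in place of HTODemux to call hashtags, the exact permutation p was 0.0635 (difference -0.440 percentage points). For the share without thinning it was 0.0476 (difference -0.604 percentage points).

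T cells were measured in the same hashtags and did not separate. They made up 0.310 to 0.610% of cells in the PFF + VH hashtags and 0.143 to 0.675% in the PFF + AZD1480 hashtags. The log2 ratio of members to T cells was 0.36 ± 0.50 (SD, n = 4) in PFF + VH and -1.39 ± 0.79 (SD, n = 5) in PFF + AZD1480, a ratio 3.36-fold lower (exact permutation p = 0.0159, adjusted 0.0212). With MULTIseqDemux the log2 difference was -1.02 and the exact permutation p was 0.222. The ratio was not thinned, though cells had a median of 2538 to 3267 UMIs in PFF + VH hashtags and 6182.5 to 7121 in PFF + AZD1480. Members needed no CD3 UMI and T cells at least 1, so depth bears on both counts. CD3 left out 57 of 224 cells with NK genes in the PFF + VH library and 24 of 49 in PFF + AZD1480. The part of depth in the ratio was not tested. Monocyte and neutrophil markers took 0.350% of the T cells' UMIs in the PFF + VH library and 1.30% in PFF + AZD1480. Their part in the ratio was not tested.

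The size of the difference moved with the cells counted. The share was 2.42-fold higher in the PFF + VH library than in PFF + AZD1480 over all cells and 3.53-fold over cells with any hashtag (0.579% against 0.164%). Of all PFF + VH cells, 37.3% had no hashtag call, against 2.34% of its members, and those cells were shallow, with a median of 1346 UMIs. In PFF + AZD1480, 6.41% of cells and none of the 20 members lacked a call. More than 1 hashtag was called in 14.1% of PFF + VH members and in 35.0% of PFF + AZD1480 members (7 of 20), and in 38.1% and 50.5% of T cells. The part of these calls in the result was not tested. In a sorted sample, fewer NK cells and more of other CD45+ cells cannot be told apart.

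Within the members, Gzma (granzyme A) and the Ly49 receptors Klra4 and Klra8 marked some cells and not others. This division was chosen after its values were seen, uses genes of the selection rule and carries no test. The part of the hybrid breeding of the mice in it was not tested. A UMI of at least 1 of the 3 genes was found in 169 members and none in 135. Eomes had a UMI in 45.0% of the cells with these genes (76 cells) and in 2.22% of those without (3 cells). Itga2 followed at 43.2% and 10.4%, and Prf1 at 72.8% and 41.5%, although in PFF + AZD1480 Prf1 was at 40% in both. Gzmb, on the same list of conventional NK genes, did not follow over all members (33.7% and 31.1%) or in PBS (22.6% and 23.5%). In monomer it did, at 54.1% and 35.0%. S1pr5, which guides NK cells out of tissues, was detected in 9.47% and in 0 of 135 cells. That 0 allows up to 2.22% of cells with a UMI. It sets no limit on expression below detection, since S1pr5 had only 21 UMIs over all members. Eomes, Itga2 and S1pr5 are known from circulating NK cells.

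Genes known from ILC1 had the opposite order. Cxcr6 had a UMI in 18.9% of the cells with Gzma or Ly49 and in 76.3% of those without, Tnfsf10 in 27.8% and 48.9% and Itga1 in 39.1% and 63.7%. Ckb, on the same list of ILC1 genes, was at 20.1% and 20.7%. Xcl1 went from 71.6% to 95.6%. Because a cell without Gzma and Ly49 had to be chosen by Ncr1, Klrb1c or Xcl1, the Xcl1 difference is in part set by the rule, and so is the share with Ncr1 (80.5% and 84.4%). Of genes shared by both cell types and outside the rule, Tbx21 was detected in 45.0% and 51.1%, Il2rb in 81.1% and 82.2% and Nkg7 in 90.5% and 86.7%. Microglia held Cxcr6 in 0.896 to 1.69% and Tnfsf10 in 2.21 to 4.62% of cells. T cells held more Cxcr6 than the members (484 against 267 CPM), so it is not particular to ILC1-like cells here. Tnfsf10 (66.5 against 146 CPM) and Itga1 (161 against 293 CPM) were lower in T cells. Inpp4b and Cd200r1 are less telling here, since microglia also held them, Inpp4b in 70.7 to 89.9% and Cd200r1 in 8.71 to 18.4% of cells. The same holds for Il7r, detected in 7.69% and 40.7% of members, since it stood at 134 CPM in the members, 542 in T cells and 53.2 in all other cells.

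**Figure D2:**
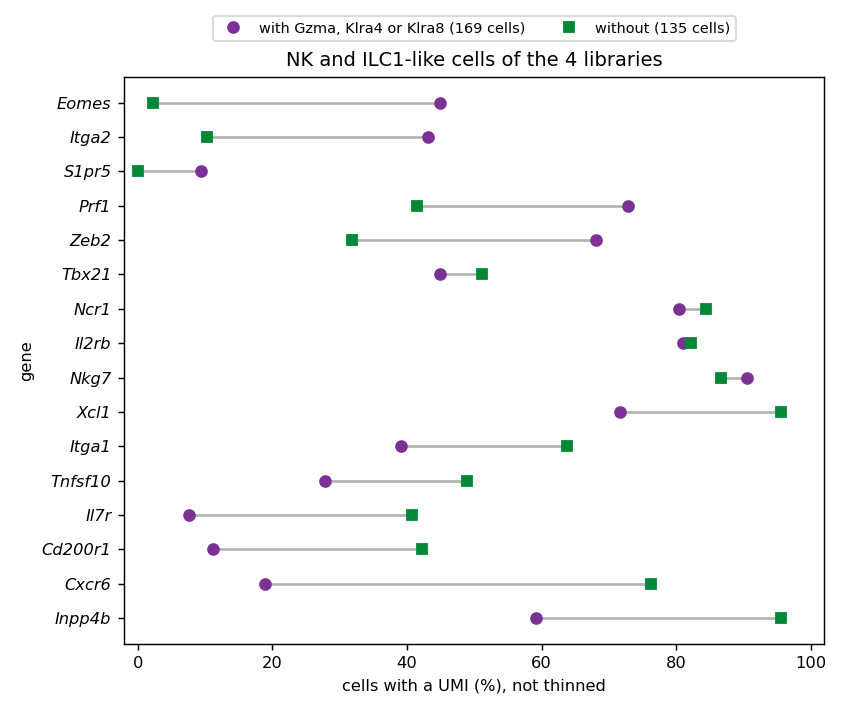
Percent of cells with a UMI (not thinned) in members with Gzma, Klra4 or Klra8 (circles, 169 cells) and without (squares, 135 cells), over the 4 libraries. Eomes reaches 45.0% in the former and 2.22% in the latter, Cxcr6 18.9% and 76.3%.

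Depth differed among the libraries that feed these shares, so the order was read within each. The cells with and without Gzma or Ly49 had a median of 5217 and 5444 UMIs in PBS, 5700 and 5806 in monomer, and 2708 and 2914 in PFF + VH. In PFF + AZD1480 the medians were further apart, at 8742 and 6352. Eomes was detected in 66.1% and 5.88% of the cells with and without Gzma or Ly49 in PBS, in 54.1% and 5.00% in monomer and in 21.5% and 0% in PFF + VH. Cxcr6 was detected in 14.5% and 82.4% in PBS, in 27.0% and 85.0% in monomer and in 15.4% and 73.0% in PFF + VH. In PFF + AZD1480, with 5 and 15 cells, Cxcr6 was at 60.0% in both. Itga1 differed less in monomer, at 73.0% and 77.5%, and in PFF + AZD1480 its order was reversed, with all 5 cells with Gzma or Ly49 and 73.3% of the 15 without. Tnfsf10 (80% and 73.3%) and Cd200r1 (60.0% and 33.3%) were reversed there too. Eomes and Itga1 were found together in 27 of the 304 members, 14 of them in monomer.

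The cells with Gzma or Ly49 were 78.5% of the members in PBS (62 of 79, exact 95% interval 67.8 to 86.9), 48.1% in monomer (37 of 77, 36.5 to 59.7), 50.8% in PFF + VH (65 of 128, 41.8 to 59.7) and 25% in PFF + AZD1480 (5 of 20, 8.66 to 49.1). These intervals cover counting error only, and the values are a description of cells divided by genes of the rule. Of all cells of a library, they were 0.424%, 0.246%, 0.189% and 0.0384%, and the members without these genes 0.116%, 0.266%, 0.183% and 0.115%.

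By hashtag, members with Gzma or Ly49 were 0.310, 0.451, 0.400 and 0.149% of cells in PFF + VH and 0, 0, 0.0713, 0.0675 and 0.0751% in PFF + AZD1480. A count of 0 in PFF + AZD1480 hashtags 1 and 2 allows up to 0.127% and 0.121%. The members without these genes were 0.332, 0.106, 0.306 and 0.354% in PFF + VH and 0.0844, 0.121, 0, 0.0675 and 0.150% in PFF + AZD1480, where the 0 of hashtag 3 allows up to 0.214%. The former do not overlap and the latter do, but whether the 2 kinds of cell differ in this was not tested. Only 4 and 9 PFF + AZD1480 cells stand behind these shares.

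The plot of detection by library shows the same genes after thinning. This equalises depth for detection but not for membership, since the members were chosen before thinning. Eomes was detected in 20, 9.34, 5.08 and 0.25% of thinned members in PBS, monomer, PFF + VH and PFF + AZD1480, and Itga1 in 14.7, 32.1, 17.7 and 27.8%. The Eomes value of PFF + AZD1480 rests on 1 UMI in 1 member. Ncr1, which chose the cells, was detected in 45.0, 58.9, 42.8 and 44.2%. Without thinning, Eomes was detected in 53.2, 28.6, 10.9 and 5.00% of members and in 0.0848, 0.0151, 0.0299 and 0.00899% of microglia, whose median depth was 7381, 7043, 2765 and 7071 UMIs. Itga1 was detected in 35.4, 75.3, 39.1 and 80% of members and in 0.393, 0.520, 0.444 and 0.701% of microglia.

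**Figure D3:**
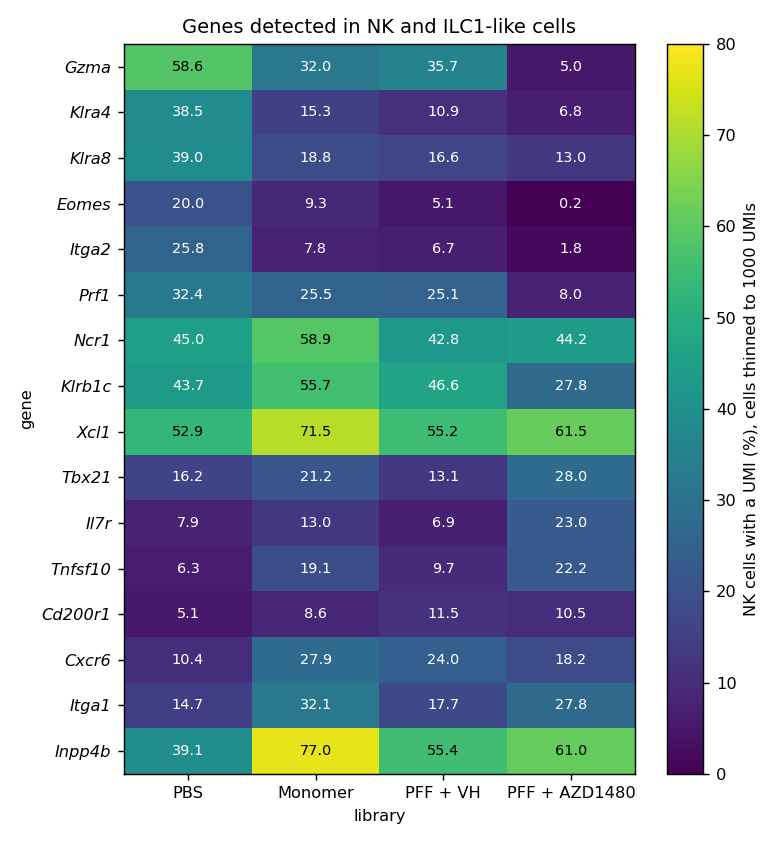
Percent of members with a UMI of each gene (rows) in each library (columns), after thinning to 1000 UMIs. Eomes is at 20% in PBS and 0.25% in PFF + AZD1480, where it rests on 1 UMI, while Itga1 is lowest in PBS at 14.7%.

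Levels were then compared between libraries in CPM of the summed members. With 1 library per condition there is no test, and a fold difference compares these libraries and not the conditions. Of 4839 genes with at least 50 UMIs over all members, 2.4% were 2-fold or more higher and 4.57% 2-fold or more lower in monomer than in PBS. For these folds, a count under 3 UMIs was set to 3 UMIs, while CPM are given as measured.

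Of 10 conventional NK genes counted in monomer and PBS, 5 were 2-fold or more lower (among them Eomes, Itga2, Klf2 and Irf8) and 1 was higher in monomer (Gzmb), with a median log2 difference of -1.08, against -0.04 over all genes. Of 13 ILC1 genes, 4 were higher (Itga1, Tnfsf10, Cxcr6 and Inpp4b) and 0 lower, with a median of 0.90, while Cxcr3 and Ckb stood at -0.23 and -0.24. Eomes stood at 259 CPM in PBS (exact Poisson 95% interval 214 to 312) and at 106 in monomer (77.5 to 141). Cxcr6 stood at 122 (91.1 to 159) and 382 (326 to 445), and Itga1 at 174 (137 to 218) and 410 (352 to 475). None of these pairs of intervals overlaps. Beside this, 8 of 14 microglial markers were 2-fold or more lower in the monomer members, and microglial markers took 0.985% of the members' UMIs in PBS and 0.501% in monomer. Klf2 and Irf8 are higher in all other cells than in the members, and Eomes, Itga2, Itga1 and Cxcr6 are lower. The part of microglial RNA in these differences was not tested.

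Effector genes split in the same pair of libraries. Gzmb, which encodes granzyme B, was 4.18-fold higher in monomer (149 and 624 CPM), while Prf1 stood at 404 and 405 CPM and Ccl5 was 2.01-fold lower (5682 and 2822 CPM). Ifng stood at 75.7 CPM in PBS and 173 in monomer. Of 10 STAT5 and cytokine response genes, 3 were 2-fold or more higher (Cish, Myc and Gzmb) and 0 lower. Over all genes, 2.4% were higher and 4.57% lower. Cish, a feedback inhibitor that IL-2 and IL-15 induce, stood at 29.8 CPM (15.9 to 51.0) and 131 (99.4 to 170).

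**Figure D4:**
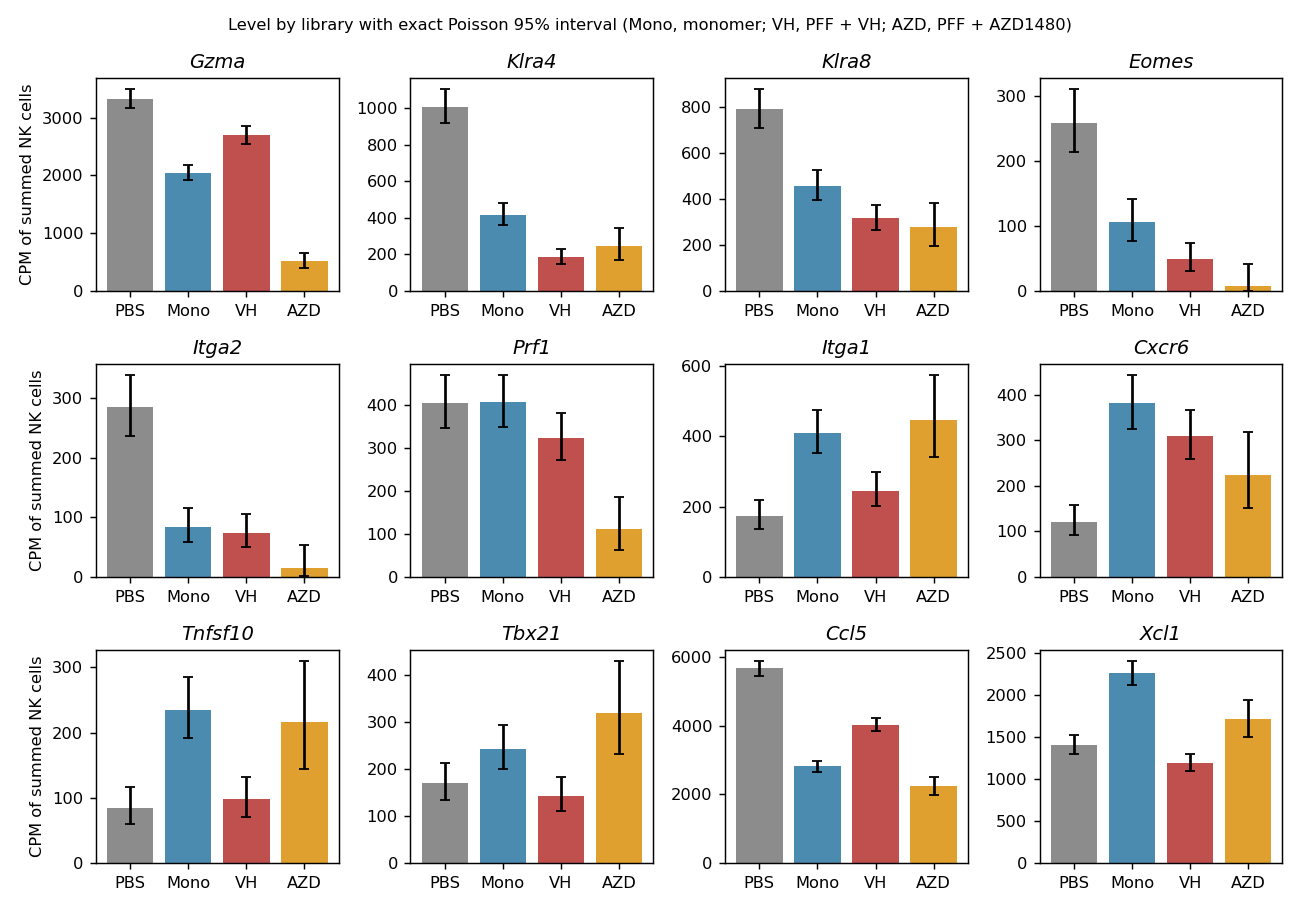
CPM of 12 genes in the summed members of each library, with exact Poisson 95% intervals. Eomes is 259 CPM in PBS and 7.46 in PFF + AZD1480, where it rests on 1 UMI, and Cxcr6 122 in PBS and 382 in monomer.

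Between PFF + VH and monomer, 5.64% of genes were 2-fold or more higher and 3.84% lower. Microglial markers made up a large part of the former among the lists, with 13 of 14 higher and a median log2 difference of 2.60. They took 2.73% of the members' UMIs in PFF + VH, against 0.501% in monomer, and in T cells 3.51% against 0.900%. Of the conventional NK genes, 3 were higher (Itgam, Zeb2 and Ly6c2) and Eomes lower (106 and 48.7 CPM). Itgam and Zeb2 are higher in all other cells than in the members, and the part of microglial RNA in their values was not tested. Ly6c2 is also on the list of monocyte and neutrophil markers, of which 4 of 5 were higher in PFF + VH (Ly6c2, Lyz2, Csf3r and Mrc1, median log2 difference 1.60) and 1 lower (Ccr2). Lyz2 stood at 34.5 CPM in monomer and 350 in PFF + VH, and Mrc1, a macrophage receptor, had no UMI in monomer and 65 UMIs in 11 PFF + VH members. These were all the Mrc1 UMIs of the members, so it was counted only through the library where it was high. The part of monocyte and neutrophil markers in the values was not tested. Of the ILC1 genes, Ckb was higher and Tnfsf10, Il7r and Cd160 were lower. Of 3 T-cell markers counted, 2 were lower as well (Trbc1 and Cd28). Of 10 STAT5 and cytokine response genes, 4 were lower in PFF + VH than in monomer (Cish, Socs1, Pim2 and Myc) and 1 higher (Socs3, which is also higher in all other cells than in the members), with a median log2 difference of -0.78. Ifng and Cish both stood at 46.4 CPM in PFF + VH.

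Between PFF + AZD1480 and PFF + VH, 6.01% of genes were 2-fold or more higher and 8.41% lower. Here 8 of 10 conventional NK genes were lower (Eomes, Itga2, Itgam, Prf1, Gzmb, Zeb2, Ly6c2 and Klf2) and 0 higher, with a median log2 difference of -1.58. Of 13 ILC1 genes, 3 were higher (Tnfsf10, Il7r and Cd160) and 0 lower. Prf1 stood at 322 CPM (271 to 380) in PFF + VH and 112 (62.6 to 184) in PFF + AZD1480, and Il7r at 81.1 (56.5 to 113) and 283 (201 to 389). Eomes stood at 48.7 CPM (21 UMIs, 30.1 to 74.4) and 7.46 (1 UMI, 0.189 to 41.5), and Itga2 at 74.2 (32 UMIs, 50.7 to 105) and 14.9 (2 UMIs, 1.81 to 53.9), so that the intervals of both genes overlap. As in the preceding comparison, microglial markers moved too, with 8 of 14 lower, and took 1.45% of the members' UMIs in PFF + AZD1480. Monocyte and neutrophil markers moved as well, with 4 of 5 lower (Ly6c2, which both lists hold, Lyz2, Csf3r and Mrc1) and a median log2 difference of -1.55. Mrc1 had UMIs in PFF + VH alone, so its place in this count was set by that library. Of 3 T-cell markers counted, 2 were higher (Trbc1 by 2.08-fold and Cd28 by 2.79-fold), with a median of 1.06, and Il7r, one of the 3 ILC1 genes, is also higher in T cells than in the members. The part of these cell types in the result was not tested.

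These last libraries also allow a test over hashtags, on UMIs summed over the members of a hashtag. Treatment and library cannot be told apart in it either. Of the PFF + AZD1480 hashtags, 2, 4 and 5 held 3 or more members and entered with the 4 PFF + VH hashtags, so that 10 cells stood for PFF + AZD1480. The edgeR quasi-likelihood test over 1419 genes called 15 at an adjusted p under 0.05. These were 1 gene higher in PFF + AZD1480 (0.0705% of genes tested) and 14 lower (0.987%), and 199 genes had an unadjusted p under 0.05. Of the 14, 2 are genes of the rule (Gzma and Klrb1c) and are described but not counted as findings, which leaves 13 called genes, 12 of them lower. The values of the 2 groups did not overlap in any of the 15, nor in 15.9% of all genes tested. In 11 of them the level in all other cells was above that in the members, and these 11 fell beside microglial RNA.

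Of the genes that fell, 3 are on the list of microglial markers (C1qa, C1qb and Cx3cr1). C1qa, the complement component, stood at 1892, 1741, 2323 and 1136 CPM in PFF + VH and at 214, 503 and 306 in PFF + AZD1480 (log2 difference -2.41, SE 0.36, edgeR adjusted p = 0.00482). Apoe stood at 4956, 1697, 1707 and 1742 CPM and at 321, 503 and 102 (-3.06, SE 0.53, edgeR adjusted p = 0.0169). Zeb2, a transcription factor of mature NK cells and of microglia, stood at 575, 1001, 590 and 444 CPM and at 107, 155 and 102 (-2.46, SE 0.48, edgeR adjusted p = 0.0250). Ccl3, a chemokine of activated NK cells and of microglia, stood at 774, 1247, 1155 and 822 CPM and at 321, 271 and 306 (-1.83, SE 0.35, edgeR adjusted p = 0.0249). With MULTIseqDemux none of these 4 genes was called (edgeR adjusted p from 0.0772 for Zeb2 to 0.250 for C1qa), and the log2 difference was -1.37 for C1qa and -1.85 for Apoe. With a limit of 4 UMIs for members they were not called either (edgeR adjusted p from 0.0531 to 0.0535). Ccl3 and Zeb2 were lost without any 1 of the 3 PFF + AZD1480 hashtags (edgeR adjusted p from 0.0558 to 0.0905), Apoe without hashtag 2 or 5 (0.0605 and 0.0710) and C1qa without hashtag 5 (0.0567). C1qb, Ftl1, Ctsd, Plxdc2, Maml3, Ly86 and Cx3cr1 fell as well, though with every hashtag in the fit Ftl1 was not called (edgeR adjusted p = 0.0699), and Lsamp, Plxdc2, Maml3, Ly86 and Cx3cr1 did not pass its filter on low counts. With 1 hashtag left out, Plxdc2, Ly86 and Cx3cr1 each kept their call in 1 of 7 fits and Maml3 in 0 of 3. Ctsd kept it in 2, Ftl1 in 4 and C1qb in 5 of 7. Over all alternatives the log2 difference of Maml3 ranged from -7.05 to -0.406. Maml3 stood at 323 CPM in PFF + AZD1480 hashtag 3, above PFF + VH hashtags 1 and 4 (199 and 151). Microglial markers, without the 3 of the rule, took 2.33, 1.96, 3.05 and 1.44% of the members' UMIs in the PFF + VH hashtags and 0.631, 1.33 and 0.408% in PFF + AZD1480 hashtags 2, 4 and 5 (difference -1.40 percentage points, exact permutation p = 0.0571, the smallest this design allows). With MULTIseqDemux this difference was -0.796 percentage points (exact permutation p = 0.4). The part of microglial markers in the 11 genes was not tested.

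Lsamp, a cell adhesion gene, stood at 597, 218, 218 and 454 CPM in PFF + VH. It had no UMI in the 3 PFF + AZD1480 hashtags, so it entered the test only through its PFF + VH counts. Against a floor of 3 UMIs over the PFF + AZD1480 group it was 8.31-fold lower, but that floor counts UMIs and not cells. Over all libraries Lsamp had a UMI in only 66 members (21.7%), and few cells stood for PFF + AZD1480 in the fit. The part of the sampling of cells in this difference was not tested. The edgeR adjusted p of Lsamp was 0.0250, and with 1 hashtag left out its call was kept in 4 of 7 fits. For the rule genes, Klrb1c stood at 642, 856, 770 and 703 CPM in PFF + VH and at 374, 116 and 204, but PFF + AZD1480 hashtag 1, outside the fit, stood at 861. Gzma stood at 1538, 2219, 5622 and 2565 CPM in PFF + VH and had no UMI in PFF + AZD1480 hashtags 2, 4 and 5. The single member of hashtag 3, outside the fit, held 69 Gzma UMIs (7426 CPM), which were all those of the PFF + AZD1480 library. Both genes chose the cells, so that these values are a description.

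**Figure D5:**
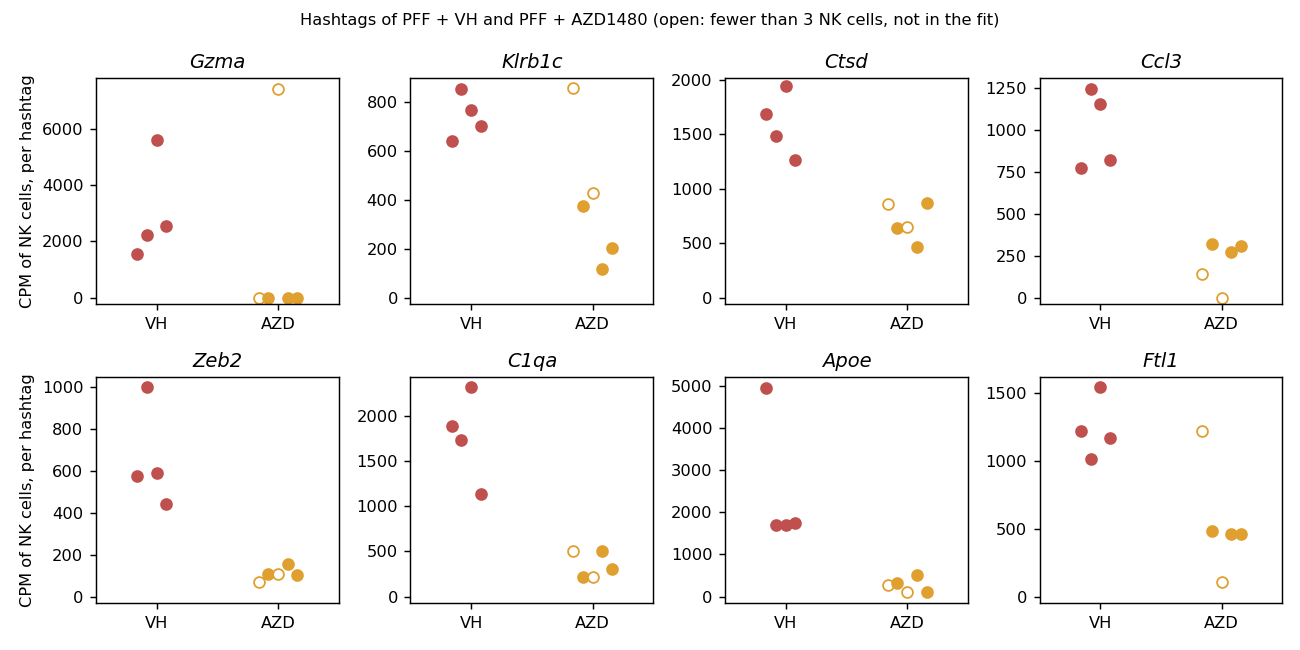
CPM of 8 genes in the summed members of each hashtag of PFF + VH and PFF + AZD1480, where open circles are PFF + AZD1480 hashtags 1 and 3, with 2 and 1 members, which did not enter the fit. C1qa, Apoe, Zeb2 and Ccl3 are lower in each PFF + AZD1480 hashtag than in each PFF + VH hashtag, and the open circles of Gzma (7426 CPM), Klrb1c (861 CPM) and Ftl1 (1220 CPM) overlap PFF + VH.

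The number of calls was unstable. With MULTIseqDemux and with a limit of 4 UMIs, the 1 gene called was Gzma, a gene of the rule. Without PFF + AZD1480 hashtag 5, 1 gene was called, without hashtag 2 of that group 6, and without PFF + VH hashtag 4 30. In simulated data for this comparison, 22% of genes changed by 2-fold and 84.5% of genes changed by 4-fold were recovered, so that 2-fold differences were mostly not detected in this setting. The simulation gave every gene the same dispersion and changed 200 of 1419 genes, where 15 were called in the data. Recovery in the data may therefore be lower.

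Of 29 genes of the NK programme outside the rule, 26 were tested and 0 called. With 0.0705% of all genes called higher and 0.987% lower, a count of 0 says nothing particular about them. Of the 26, 15 were lower and 11 higher in PFF + AZD1480, with a median log2 difference of -0.20, against 0.00 over all genes. Nkg7 differed by -0.73 (SE 0.30, edgeR adjusted p = 0.270), Il2rb by 0.35 (SE 0.36, edgeR adjusted p = 0.727) and Itga1 by 0.00 (SE 0.41, edgeR adjusted p = 1.00). Gzmb stood at 254, 435, 911 and 563 CPM in PFF + VH and at 0, 38.7 and 204 in PFF + AZD1480, without overlap, but missed the threshold (-2.84, SE 0.72, edgeR adjusted p = 0.0688) and passed it with DESeq2 (adjusted p = 0.0139). Of 7 conventional NK genes tested, 1 was called (Zeb2) and all 7 had a negative log2 difference, with a median of -2.41. Of these 7, Itgam, Zeb2, Klf2 and Irf8 are higher in all other cells than in the members, and 12 of 13 microglial markers tested had a negative difference too, with a median of -1.88. The part of microglial RNA in the list was not tested. Eomes had too few UMIs to be tested. Of 9 ILC1 genes tested, 0 were called, 5 were higher and 4 lower, with a median of 0.00.

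Few genes of the pathway that AZD1480 targets could be tested. Of 11 JAK kinases and STAT factors, 3 had enough UMIs to be tested. Jak1 stood at 542, 754, 513 and 682 CPM in PFF + VH and at 748, 928 and 459 in PFF + AZD1480 (log2 difference 0.12, SE 0.32, edgeR adjusted p = 0.904). Stat4, which IL-12 activates, stood at 398, 508, 462 and 487 CPM and at 588, 734 and 1274, without overlap (0.80, SE 0.32, edgeR adjusted p = 0.254). Stat3 differed by -1.25 (SE 0.50, edgeR adjusted p = 0.256). Jak3 had 5, 18, 3 and 1 UMIs in PBS, monomer, PFF + VH and PFF + AZD1480. Of 12 STAT5 and cytokine response genes, 4 were tested and 0 called, again beside the low share called over all genes, with Pim1 at -0.25 (SE 0.47, edgeR adjusted p = 0.863) and Bcl2 at 0.28 (SE 0.32, edgeR adjusted p = 0.741). Of 20 interferon response genes, 1 was tested and 0 called. Between the libraries, 3 of 11 interferon response genes counted were 2-fold or more lower in PFF + AZD1480 (Irf1, Isg15 and Rnf213) and 0 higher, with a median log2 difference of -0.31 against 0.03 over all genes. Isg15 stood at 62.6 CPM in the PFF + VH library (27 UMIs, exact Poisson 95% interval 41.2 to 91.1) and at 14.9 in PFF + AZD1480 (2 UMIs, 1.81 to 53.9). Irf1 stood at 165 (129 to 208) and 74.6 CPM (35.8 to 137), and Rnf213 at 99.7 (72.1 to 134) and 44.7 (16.4 to 97.4). The intervals of all 3 genes overlap between the libraries. Of the 10 STAT5 and cytokine response genes counted, 3 were lower (Socs2, Socs3 and Gzmb) and 1 higher (Socs1). Over all genes, 8.41% were 2-fold or more lower and 6.01% higher between these libraries. Stat3, Irf1 and Socs3 are higher in all other cells than in the members (434 against 290, 227 against 142 and 459 against 71.7 CPM). Isg15, Rnf213, Socs2 and Gzmb are lower in all other cells. The part of microglial RNA in these differences was not tested.

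Chemokines, receptors and stress genes were examined last. Of 7 cytokines and chemokines tested, Ccl3 was called, beside 0.987% of all genes called lower. Ccl5 stood at 3064, 4700, 8959 and 2716 CPM in PFF + VH and at 3794, 1314 and 3619 in PFF + AZD1480 (log2 difference -0.87, SE 0.40, edgeR adjusted p = 0.344), and the groups overlap. Klrk1, which encodes NKG2D, stood at 564, 638, 667 and 682 CPM and at 695, 1121 and 1325, without overlap, and the adjusted p missed the threshold (0.63, SE 0.28, edgeR adjusted p = 0.321). All 13 immediate early and heat shock genes tested, which tissue dissociation can induce, had a negative log2 difference (median -0.73), and 0 were called. With 0.0705% of all genes called higher and 0.987% lower, that 0 says nothing particular about them. The heat shock genes Hspa1a and Hspa1b did not pass the filter and were higher in the PFF + AZD1480 library, Hspa1a at 25.5 CPM (12.7 to 45.6) in PFF + VH and 104 (57.1 to 175) in PFF + AZD1480, and Hspa1b at 16.2 (6.52 to 33.4) and 74.6 (35.8 to 137). Between these libraries, 2 genes of that list were 2-fold or more higher and 1 lower (Fosb), beside 6.01% and 8.41% of all genes. Each of the 16 genes on that list is higher in all other cells than in the members.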

How the data were processed

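CD45+ midbrain cells of PBS, monomer, PFF + VH and PFF + AZD1480 mice were analysed from the deposited tables of UMI counts, made by the authors by running Cell Ranger (7.0.1 in the file headers) on mm10, together with hashtag counts for both PFF groups. No deposited column was left unmapped (0). Cells with 500 to 15000 UMIs, 250 to 5000 genes and at most 10% mitochondrial UMIs were kept, as in the study's methods. The members and gene lists were chosen with earlier results of these data known. Named genes are those of the selection rule, of fixed lists (the most abundant and those called), the 10 leading genes by ratio and the called genes.

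Hashtags were called with HTODemux (Seurat 5.3.0, R 4.3.3, quantile 0.99). Shares were compared with exact permutation tests over hashtags, and p-values measure only the spread between hashtags, with 1 library per group. Thinned values are means of 20 draws. Counts summed per hashtag (at least 3 members) were tested with edgeR 4.0.16 (TMM, filterByExpr, Benjamini-Hochberg adjustment over all genes tested, threshold 0.05), after a check on simulated data. Other work used Python 3.11.15, scipy 1.17.1 and scanpy 1.11.5. Alternatives were MULTIseqDemux or values centred within cells, other UMI limits and thinning, Scrublet, DESeq2 1.42.0, RLE scaling, no filter, a hashtag block, Gm42418 left out and each hashtag left out. No doublets were removed, since Scrublet's own threshold called 1 of the 77105 cells. The called gene that was higher and some list members are not reported here.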

Additional observations from a re-analysis of the deposited data

Results flagged for a closer look

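In 22 groups of 4 hashtag values examined, 2 held a value far from the other 3, where chance gives about 1 in 20. Apoe stood at 4956 CPM in the members of PFF + VH hashtag 1, against 1697 to 1742 CPM in the others, a gap of 0.986 of the range (limit 0.829). Plxdc2 stood at 271 CPM in those of PFF + VH hashtag 4, against 962 to 1065 CPM, a gap of 0.871. Both genes are higher in all other cells than in the members.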

How the results depend on the processing

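Of the shares of members, that of all single-hashtag cells kept its direction and its side of the threshold in 16 of 16 alternatives. The thinned share did so in 14, the exception being MULTIseqDemux (-0.440 percentage points, exact permutation p = 0.0635), and the ratio to T cells in 13, the exception being MULTIseqDemux (log2 difference -1.02, exact permutation p = 0.222). Alternatives that left out 1 hashtag could not cross the threshold, since the groups do not overlap in these 3 measures. For the share of all single-hashtag cells, MULTIseqDemux gave an exact permutation p of 0.0476, where 0.0159 was the smallest possible. The PFF + VH library share was 0.485% without the comparison with microglial genes, which was chosen after seeing the data, as were the limit of 1000 UMIs for library shares, the top 5% of Scrublet scores and the fit with every hashtag. The 15 genes called by edgeR became 1 with MULTIseqDemux, 1 with a limit of 4 UMIs, 1 with the hashtag number as a block, 114 without a filter (of 12315 tested) and 26 with DESeq2 (of 594 tested). They ranged from 1 to 30 when each hashtag was left out, with 1 without PFF + AZD1480 hashtag 5, 6 without hashtag 2 of that group, 9 without PFF + VH hashtag 1 or 3 and 30 without PFF + VH hashtag 4. The cause was not tested. With every hashtag, 12 were called. No called gene changed direction. Hashtags of the same number did not deviate together where both groups had 3 or more members (hashtags 2 and 4, correlations -0.0665 and -0.0945), so the numbers were not treated as pairs, and hashtags 1 and 3 were not examined. Shares of PFF + AZD1480 rest on 13 members with a single hashtag.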

Other observations

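Cells with NK genes and CD3 were left out of the members. They numbered 149 (PBS 37, monomer 31, PFF + VH 57 and PFF + AZD1480 24). In PFF + AZD1480 they outnumbered the 20 members. Their summed level of Xcl1 was 1544 CPM and of Nkg7 1182 CPM, against 1631 and 1438 in the members. Trdc, the constant chain of the γδ T-cell receptor, stood at 288 CPM in them, 28.6 in the members and 176 in T cells, and Cd8a at 112 CPM, 0 and 131. Prf1 stood at 121 CPM, against 352 in the members, and Eomes at 42.4 against 126. Ifng stood at 114 CPM, against 93.3 in the members. Their cells overlap with the 497 T cells, and no test was made.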
